A study of Mus musculus with 9 samples.

Results

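Aminoacyl-tRNA synthetases, the enzymes that load each tRNA with its amino acid, were examined in mouse liver RNA-seq libraries. The genes were chosen by symbol: 36 listed synthetase genes were looked up in the deposited table of 25781 genes, all 36 were found, and all 36 were among the 20145 genes with enough reads to be tested (a mean scaled count of at least 1). They comprise 20 cytosolic enzymes and 16 mitochondrial enzymes, the latter being the genes whose names end in 2. The series concerns selenium against liver injury. Liver was taken from Swiss mice labelled as aged 10 to 12 weeks, in 3 groups of 3 libraries. Controls have neither agent in their labels. The β-CYP group received β-CYP at 40 mg/kg and is called the injury group in the design text. The selenite group received β-CYP at that dose plus sodium selenite (Na2SeO3, 50 µg/kg) and is called the repair group there. The abbreviation β-CYP is used as the labels give it, unexpanded. They name no genetic alteration, and give neither the route, the duration nor the sex of the animals. Nothing in them tells if a group's 3 libraries stem from different animals. The p-values therefore reflect library-to-library spread alone, and that spread may be technical. No group received selenite alone, so a difference between the selenite group and controls contains the effects of both agents.

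Each synthetase recognises its own tRNAs, activates the matching amino acid with ATP and joins the pair. Animal cells keep largely separate nuclear-encoded sets for the cytosol and for mitochondria. The enzymes fall into classes I and II, which have unrelated catalytic folds, and several cytosolic enzymes sit together in a multisynthetase complex held by the scaffold proteins AIMP1, AIMP2 and AIMP3 (the last encoded by Eef1e1). Uncharged tRNA is sensed by the kinase GCN2, which phosphorylates the translation factor eIF2 and raises translation of the transcription factor ATF4. Synthetase genes of the cytosolic set are among the known targets of ATF4, which binds C/EBP-ATF response elements. Liver exports large amounts of plasma protein and so has a high demand for charged tRNA.

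Promoter sequences are shown for the cytosolic genes that carry such an element, because these genes did not move together in the data described further on. RefSeq promoter entries (GRCm38.p6, 250 bases before to 50 after the annotated start) matched 27 of the 36 genes, 13 cytosolic and 14 mitochondrial. Those not matched were Cars, Hars, Lars, Nars, Rars, Vars, Wars, Hars2 and Pars2. The element core TGATGNAA, searched on both strands, was in 5 of the 13 cytosolic promoters (38.5%), in 0 of the 14 mitochondrial ones and in 3.97% of 32851 RefSeq promoters of the same length. In the following lines, written 5′ to 3′ on the gene's strand, capitals mark the match.
Aars, chr8:111033700-111033749, plus strand, match 112 bases before the start: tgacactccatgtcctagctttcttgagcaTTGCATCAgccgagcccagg
Gars, chr6:55037941-55037990, plus strand, match 30 bases before the start: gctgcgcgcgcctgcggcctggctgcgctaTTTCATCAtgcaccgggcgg
Tars, chr15:11399654-11399703, minus strand, match 15 bases before the start: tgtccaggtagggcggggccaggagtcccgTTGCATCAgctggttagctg
Iars, chr13:49682107-49682156, plus strand, match 7 bases after the start: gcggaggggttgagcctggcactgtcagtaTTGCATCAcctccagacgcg
Yars, chr4:129189876-129189925, plus strand, match 3 bases after the start: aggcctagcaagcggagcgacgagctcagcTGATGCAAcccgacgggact
The Aars promoter held another match that begins 9 bases after the start. An E-box, CACGTG, which reads the same on both strands and does not overlap these matches, was in the promoters of Aars, Farsb, Iars and Tars (4 of 13) and of Ears2 (1 of 14), against 7.15% of all promoters. That of Farsb is shown because this gene was among the clearest rises with selenite while its window held no TGATGNAA.
Farsb, chr1:78488919-78488966, minus strand, match 39 bases before the start: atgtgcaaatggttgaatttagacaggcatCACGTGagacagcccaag
A match describes the letters of the window and is no evidence of binding.

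Values are scaled counts, that is read counts divided by a factor of the library. Libraries held 28630269 to 36029560 reads. Adjusted p-values are from limma's linear model over all 9 libraries, two-sided, adjusted by Benjamini-Hochberg across the 20145 tested genes, and a gene passed at an adjusted p under 0.05. Differences are log2 differences of scaled count + 1, given with the standard error (SE), and n = 3 libraries in every group. Of the 12 hepatocyte markers examined, all were detected in each group. They summed to 4074000 to 4247000 scaled counts in control and 4716000 to 4850000 in β-CYP, against 3981000 to 4046000 in selenite. With scaled counts the 3 groups thus did not overlap and the selenite libraries were lowest, but this order depends on the scaling. As a share of reads, the selenite libraries (13.1% to 13.23%) lay above every control (11.67% to 12.98%). They stayed below every β-CYP library (14.16% to 14.55%). RNA of bulk liver was sequenced, so fewer cells of a type and less RNA per cell cannot be told apart.

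To compare levels between genes, scaled counts were divided by the merged length, in kilobases, of all annotated exons of a gene. The annotation was GENCODE on GRCm38, which is not the mm9 build named by the submitters. This length covers every annotated isoform and can exceed that of the transcripts present, so the ranks depend on the annotation. Aars, with 9282 bases against 4355 for Nars, had the higher mean scaled count in control (6794 against 3476). In control liver, the cytosolic enzymes had a median of 304 scaled counts per kilobase, and the mitochondrial enzymes a median of 84.8. Nars (asparagine) was the highest cytosolic gene at 798 per kilobase, followed by Aars (alanine) at 732, Tars (threonine) at 608 and Dars (aspartate) at 482. At the low end were Vars (valine) at 112, Cars (cysteine) at 95.8 and Farsa at 89.4, the gene of the alpha chain of phenylalanyl-tRNA synthetase. Farsb, which encodes the beta chain of that enzyme, stood at 313 per kilobase. Among mitochondrial genes Iars2 (isoleucine) was highest at 249.8 and Mars2 (methionine) lowest at 8.30 per kilobase. The ranges of the 2 sets overlapped: Iars2 and Hars2 (151 per kilobase) lay above Farsa, Cars, Vars and Yars (144 per kilobase).

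Libraries of a group agreed more closely for the cytosolic set. Over the cytosolic genes, the coefficient of variation among a group's libraries had medians of 4.30% to 4.74%, where counting error alone gives 2.49% to 2.93%. Over the mitochondrial genes the medians were 6.79% to 10.4%, against 4.85% to 5.08% for counting error. Pars2 (proline) was the most variable, with 19.8, 24.5 and 101 scaled counts in the β-CYP libraries, so that the 95% interval of its difference from control spans -2.08 to 0.41 on the log2 scale.

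Summed over all 20 cytosolic genes, the libraries held 36598, 36376 and 37219 scaled counts in control, 37114, 37609 and 37750 in β-CYP, and 43128, 42621 and 42916 in selenite. All selenite libraries were above all others, and control and β-CYP overlapped. Summed over the 16 mitochondrial genes, control libraries held 8756, 9064 and 8738 scaled counts, β-CYP libraries 8571, 8626 and 8679, and selenite libraries 8242, 8213 and 7953. Here the selenite libraries were the lowest, but this order depends on the scaling: with equal totals the mitochondrial sums of the selenite libraries were 8481 to 8893, overlapping the controls (8242 to 8954) and the β-CYP libraries (8429 to 8545). The lowest of these controls, 8242, is replicate 2, where 1805976 of 35821336 reads came from AY036118, an rRNA-like transcript. Equal totals then sets the other genes of that library lower, also in comparisons with control. The other controls held 8954 and 8755, a range that the selenite libraries still overlapped. The cytosolic sums with equal totals were 45768 to 46532 in selenite and at most 37428 in the other libraries.

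**Figure D1:**
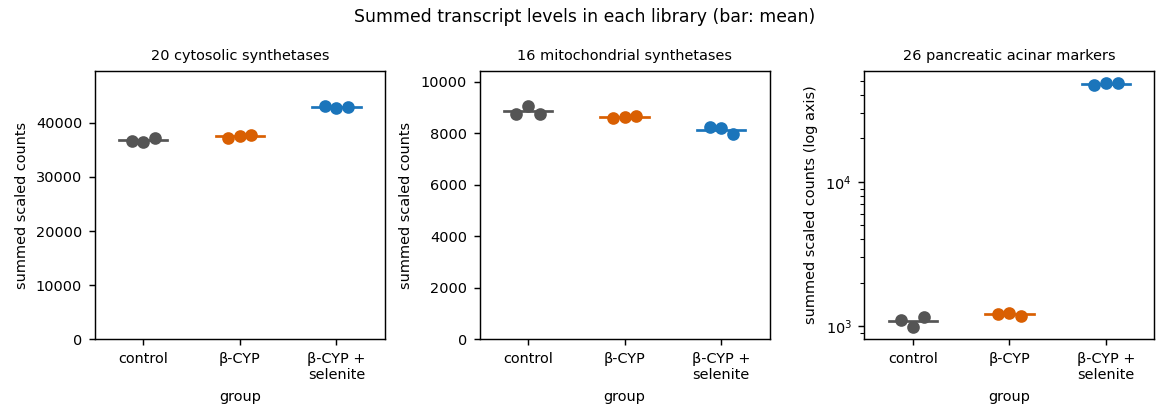
Summed scaled counts in each library (points) with the group mean (bars) for 20 cytosolic synthetases, 16 mitochondrial synthetases and, on a log axis, 26 pancreatic acinar markers. The cytosolic sum lies between 42621 and 43128 in the selenite libraries and between 36376 and 37750 in the other 6, and the acinar sum is at least 47120 in the selenite libraries and at most 1240 in the others.

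With β-CYP, few synthetase transcripts passed against control, in shares near those of all genes. Among the cytosolic enzymes, 2 of 20 were higher and 0 lower, where 7.72% of all genes tested were higher and 8.58% lower. Their median difference was 0.01, against -0.0013 over all genes, and the groups did not overlap for 7 of the 20, beside 31.6% of all genes. Aars, alanyl-tRNA synthetase, held 6750, 6558 and 7075 scaled counts in control and 7452, 7477 and 7388 in β-CYP. Tars, threonyl-tRNA synthetase, held 3434, 3580 and 3756 in control and 4015, 4200 and 3934 in β-CYP. For both genes every β-CYP library was above every control, and both rose, Aars by 0.13 (SE 0.03, adjusted p = 0.0196) and Tars by 0.17 (SE 0.04, adjusted p = 0.0185). Gars (glycine), whose promoter is also shown above, differed by 0.07 and did not pass. Iars (isoleucine) had a difference of -0.25 (SE 0.08) and just missed the threshold with an adjusted p of 0.0526, although its groups did not overlap: 1457, 1312 and 1609 in control against 1170, 1306 and 1203 in β-CYP. No enzyme of the multisynthetase complex passed in limma's test (0 of 8, 2 at an unadjusted p under 0.05, 0 with limma voom), and their median difference was -0.01. Tarsl2, a paralog of Tars outside the 36 genes, fell by 0.44 on the log2 scale (adjusted p = 0.00297), from 440, 455 and 411 scaled counts to 314, 309 and 335.

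Among the mitochondrial enzymes, 1 of 16 was higher and 1 lower with β-CYP, with a median of -0.10. Of all genes tested, 7.72% were higher and 8.58% lower, so these counts are near the shares of all genes. Iars2, isoleucyl-tRNA synthetase of mitochondria, held 2237, 2238 and 2184 scaled counts in control and 2466, 2463 and 2497 in β-CYP. It rose by 0.16 (SE 0.05, adjusted p = 0.0443), with no overlap. In GENCODE, 22.9% of its exon bases also lie in exons of Rab3gap2 on the other strand, and without the strand setting of the counting such reads cannot be told apart. Vars2, mitochondrial valyl-tRNA synthetase, held 658, 762 and 638 in control and 562, 582 and 562 in β-CYP. It fell by 0.27 on the log2 scale (SE 0.07, adjusted p = 0.035), again with no overlap. None of these 4 calls was kept under all 21 alternative settings: with libraries scaled to equal totals only Vars2 passed, and without an intensity trend none did. Aars and Tars no longer passed without control replicate 1 or 2 or β-CYP replicate 2 (Aars also without β-CYP replicate 1), Vars2 without control replicate 1 or 2 or any β-CYP or selenite library, and Iars2 without any control or β-CYP library or selenite replicate 1.

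**Figure D2:**
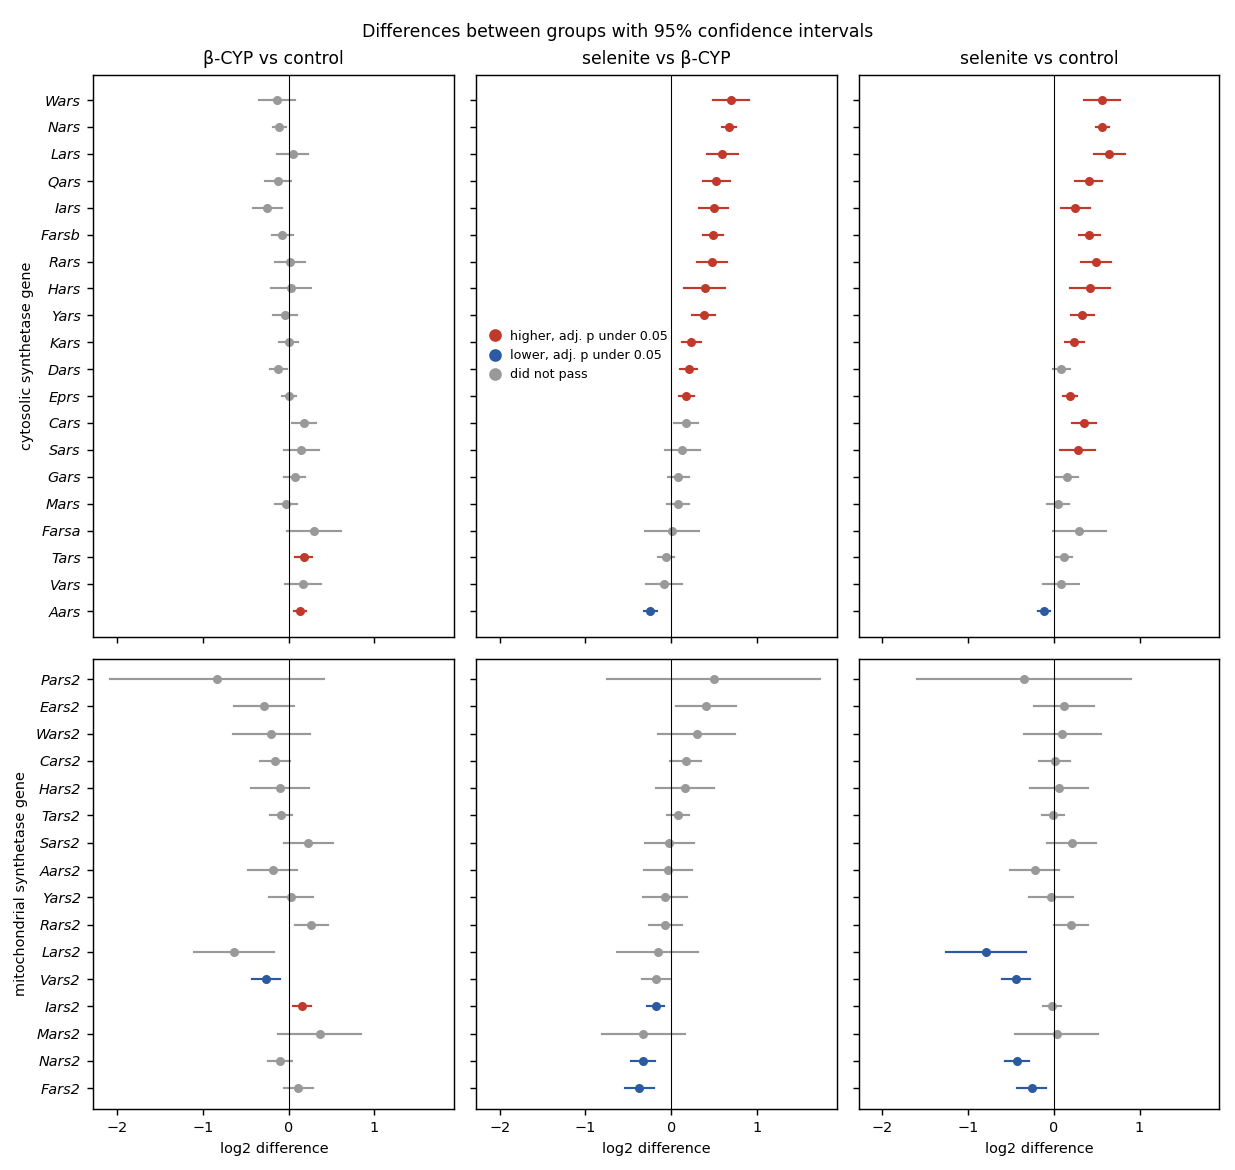
Log2 differences (x axis) with 95% confidence intervals for each cytosolic (top) and mitochondrial (bottom) gene in the 3 comparisons, coloured by call at an adjusted p of 0.05. Of the cytosolic genes, 12 are higher and 1 lower between selenite and β-CYP, while no mitochondrial gene is higher in that comparison.

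Between the selenite and β-CYP groups, most cytosolic synthetase transcripts were higher with selenite: 12 of 20 rose and 1 fell, where 11.6% of all genes tested rose and 12.3% fell. The median difference of the 20 was 0.22, against 0.02 over all genes. The groups did not overlap for 15 of the 20, and over all genes tested for 37.8%.

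Within the multisynthetase complex, 7 of 8 enzymes rose, with a median of 0.36. Lars, leucyl-tRNA synthetase, which besides charging tRNA reports leucine to the mTORC1 pathway, held 921, 960 and 815 scaled counts in control, 871, 955 and 958 in β-CYP and 1540, 1344 and 1332 in selenite. Its control and β-CYP libraries were intermixed, and all selenite libraries were far above them, a rise of 0.60 over β-CYP (SE 0.08, adjusted p = 0.000476). Qars, glutaminyl-tRNA synthetase, held 1114, 1130 and 1039 in β-CYP and 1504, 1627 and 1599 in selenite, a rise of 0.53 (SE 0.07, adjusted p = 0.000366). Iars held 1699, 1795 and 1692 scaled counts in selenite, above the β-CYP values given earlier and above all controls, and rose by 0.50 (SE 0.08, adjusted p = 0.000955). For Rars, arginyl-tRNA synthetase, values of 985, 1101 and 1145 in β-CYP stood against 1635, 1360 and 1512 in selenite, a rise of 0.48 (SE 0.08). Smaller rises were found for Kars (lysine, 0.24), Dars (0.21) and Eprs (0.18), the last encoding the fused glutamyl- and prolyl-tRNA synthetase. Mars (methionine) differed by 0.08, with a 95% interval of -0.05 to 0.21, and did not pass, although its lowest selenite library (1505) was above its highest β-CYP library (1466). The 3 scaffold genes of the complex did not pass in any comparison in limma's test or with limma voom, and 2 of them had an unadjusted p under 0.05 in each comparison of the selenite group: Aimp1 differed by 0.41 (adjusted p = 0.0761), Aimp2 by 0.28 (adjusted p = 0.105) and Eef1e1 by -0.08 between selenite and β-CYP.

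**Figure D3:**
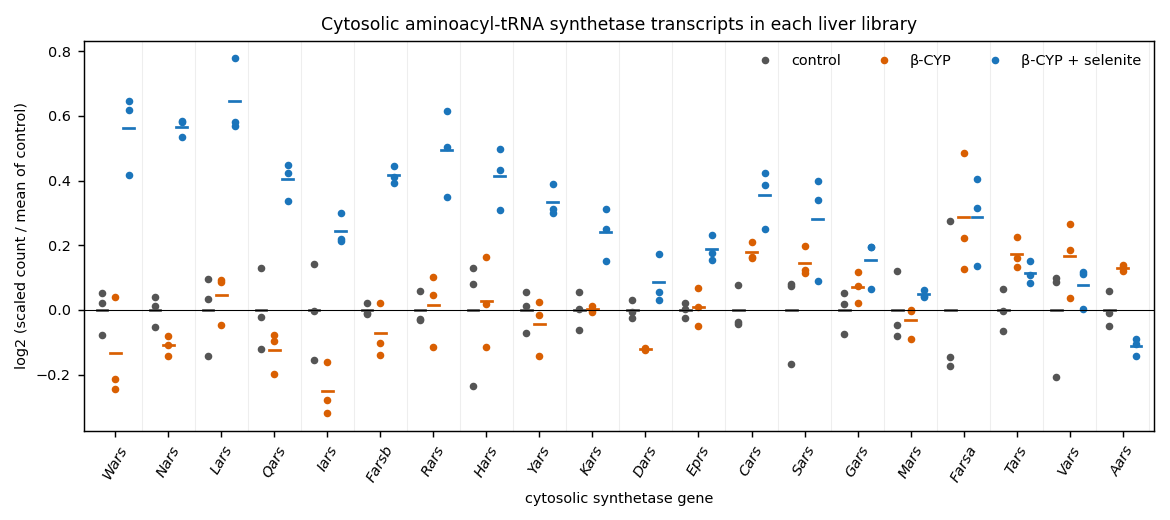
Each library's scaled count relative to the control mean (log2, y axis) for the 20 cytosolic genes, ordered by the difference between selenite and β-CYP; points are libraries and bars are group means. From Wars to Yars all selenite libraries lie above all β-CYP libraries, whereas for Aars at the right end they lie below.

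Outside the complex, 5 of 12 cytosolic enzymes rose and 1 fell, with a median of 0.15. Nars, asparaginyl-tRNA synthetase, held 3570, 3508 and 3350 scaled counts in control, 3150, 3227 and 3287 in β-CYP and 5206, 5034 and 5200 in selenite. Every selenite library exceeded every other library by more than 1000 counts, and the rise of 0.68 (1.60-fold, SE 0.03) had the lowest adjusted p of the family, 5.39e-07. Wars, tryptophanyl-tRNA synthetase, which is also induced by interferon gamma, held 503, 614 and 515 in β-CYP and 796, 916 and 933 in selenite. It rose by 0.70 (SE 0.09, adjusted p = 0.000416), the largest difference of the cytosolic set in this comparison, where its interval (0.49 to 0.91) contains the value of Nars. The beta chain gene Farsb rose from 763, 744 and 832 to 1089, 1116 and 1075 scaled counts, by 0.49 (SE 0.05, adjusted p = 0.00012). Its partner Farsa, which encodes the other chain of the same tetramer, differed by 0.01, with an interval of -0.31 to 0.32 and overlapping libraries. Hars (histidine) rose by 0.39 and Yars (tyrosine) by 0.38. Cars, Sars, Gars, Tars and Vars did not pass, with differences from -0.09 for Vars to 0.17 for Cars.

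Aars was the cytosolic gene that fell. It held 6158, 6319 and 6384 scaled counts in selenite against 7388 to 7477 in β-CYP, and every selenite library was also below every control. It fell by 0.24 against β-CYP (SE 0.03, adjusted p = 0.00039). Per the annotation, 14.3% of its exon bases lie in exons of Exosc6 on the same strand, so part of its reads may be shared. Of the 5 genes with a response element core in the promoter window, Iars and Yars thus rose with selenite, Aars fell, and Gars (0.08) and Tars (-0.06) did not pass. Of the class I enzymes 7 of 10 rose and 0 fell (median 0.43), and of the class II enzymes 5 of 10 rose and 1 fell (median 0.17). Whether the classes, or complex and other enzymes, differ was not tested.

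The rises of Nars, Wars, Lars, Qars, Iars, Farsb, Rars and Yars passed under all 21 alternatives. Scaling to equal medians ended the calls of Hars, Kars, Dars and Eprs (8 higher and 2 lower, the second being Tars), Hars also did not pass without β-CYP replicate 1 or 2 or selenite replicate 1 or 3, and the fall of Aars did not pass with equal totals or quantile normalization, where it was -0.12 and -0.05.

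Of the mitochondrial enzymes, 0 of 16 rose and 3 fell between selenite and β-CYP, where 11.6% of all genes rose and 12.3% fell, so the share that fell is near that of all genes. Their median difference was -0.05, and it was 0.07 with equal totals and -0.18 with equal medians. Fars2, the single-chain mitochondrial phenylalanyl-tRNA synthetase, held 784, 822 and 731 scaled counts in control, 847, 902 and 784 in β-CYP and 699, 611 and 646 in selenite. The highest selenite library was below the lowest of the other 6, and the gene fell by 0.37 on the log2 scale against β-CYP (SE 0.08, adjusted p = 0.00595). Nars2, the mitochondrial asparagine enzyme, held 526, 540 and 561 in control, 517, 509 and 491 in β-CYP and 389, 417 and 400 in selenite. The 3 groups were in that order without overlap, and the fall against β-CYP was -0.33 (SE 0.06, adjusted p = 0.00341). Iars2 held 2215, 2302 and 2040 in selenite, below all β-CYP libraries and overlapping the controls, a difference of -0.18 (SE 0.05, adjusted p = 0.0174). Exon bases are shared with a gene on the other strand for Fars2 (8.72%, with Nrn1), Nars2 (4.08%, with C230038L03Rik), Cars2 (5.83%, with Naxd), Vars2 (8.52%, with Gm20483) and the cytosolic Farsb (9.47%, with Sgpp2), and Hars and Hars2 share 195 bases, so these values carry the same uncertainty as that of Iars2.

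**Figure D4:**
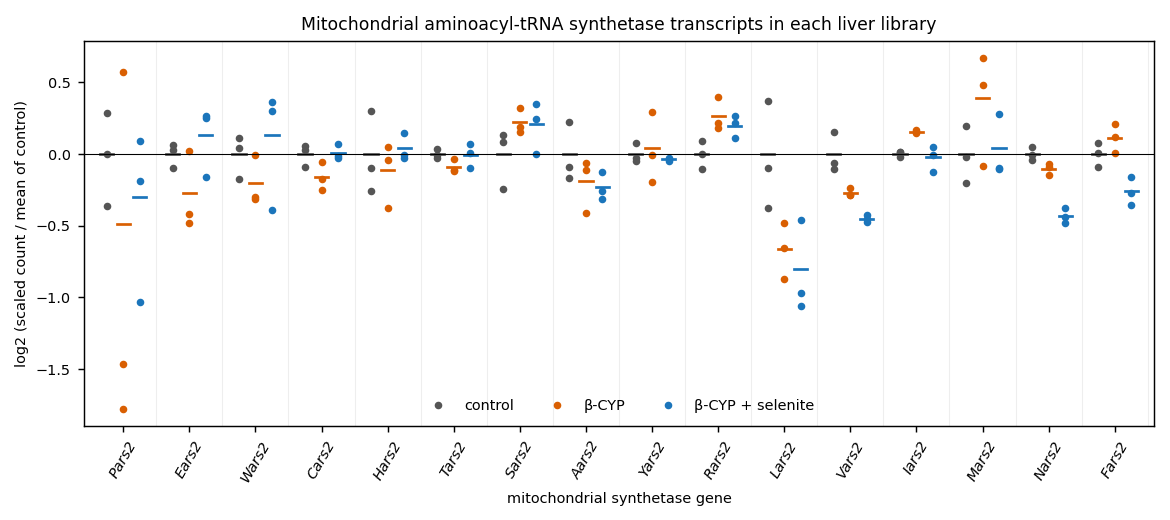
Each library's scaled count relative to the control mean (log2, y axis) for the 16 mitochondrial genes, ordered by the difference between selenite and β-CYP; points are libraries and bars are group means. Nars2 and Fars2, at the right end, have all selenite libraries below all others, and Pars2, at the left end, has the widest scatter.

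Of the other 13 mitochondrial genes, differences ran from -0.33 for Mars2 to 0.49 for Pars2, whose interval is -0.75 to 1.74, and Ears2 (glutamate) differed by 0.41 with an adjusted p of 0.0921. For 13 amino acids the names of the cytosolic and the mitochondrial gene differ only by the final 2. The differences of these pairs had opposite signs for 8 and the same sign for 5. Both genes passed for 2 of these pairs: Nars rose by 0.68 while Nars2 fell by 0.33 on the log2 scale, and Iars rose by 0.50 while Iars2 fell by 0.18. Tryptophan was among those with the same sign, with 0.70 for Wars and 0.30 for Wars2, the latter not passing, as were histidine (Hars 0.39, Hars2 0.16) and cysteine (0.17 for both Cars and Cars2). The enzymes for phenylalanine, glutamate and proline are named otherwise and are not among these pairs. For phenylalanine, Farsb rose by 0.49 and Fars2 fell by 0.37 on the log2 scale, while Farsa (0.01) did not pass. Eprs, for glutamate and proline, rose by 0.18, and Ears2 and Pars2 did not pass. Gars and Kars each encode the enzyme of both compartments and are counted here as cytosolic. All 3 mitochondrial calls were lost when libraries were scaled to equal totals, where Fars2 had an adjusted p of 0.0526 and Ears2 alone passed, as higher. Without selenite replicate 1, 2 genes, Ears2 and Wars2 (tryptophan), were called higher beside the 3 lower, and without β-CYP replicate 3 Iars2 did not pass.

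Scaling to equal totals shifted the median gene by 0.13 between selenite and β-CYP and by 0.14 between selenite and control, and equal medians by -0.13 and -0.16.

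The selenite group was also compared with control. It shares its libraries with the previous comparison and the controls with the first, so the 3 sets of values are not independent. Of the cytosolic enzymes 13 of 20 were higher and 1 lower, where 14.4% of all genes were higher and 14.5% lower, and the median was 0.29 against 0.03 over all genes. The groups did not overlap for 16 of the 20 genes, beside 41.8% of all genes. Lars was 0.64 above control (SE 0.08, adjusted p = 0.000226), Nars 0.57 (SE 0.03, adjusted p = 1.47e-06) and Wars 0.56 (SE 0.09, adjusted p = 0.00138). Cars, cysteinyl-tRNA synthetase, held 612, 614 and 665 scaled counts in control, 705, 707 and 729 in β-CYP and 846, 824 and 750 in selenite. Its 3 groups stepped upward without overlap, and only the difference between selenite and control, 0.35 (SE 0.06, adjusted p = 0.00221), passed. Sars, which charges both serine tRNA and the tRNA of selenocysteine with serine, held 1455, 1449 and 1225 in control, 1490, 1578 and 1500 in β-CYP and 1465, 1813 and 1743 in selenite. It was 0.28 above control (adjusted p = 0.0428), and 12 of the 21 alternatives did not give that call. Aars was 0.11 below control (log2 difference -0.11, adjusted p = 0.0262), but with equal totals its difference was 0.02 and with quantile normalization 0.10, so its direction against control depends on the scaling. Its call was also lost without control replicate 1 or 3 or selenite replicate 1 or 2, that of Iars (0.25, adjusted p = 0.0325) without any selenite library, control replicate 1 or 2 or β-CYP replicate 3, and that of Hars (0.42, adjusted p = 0.0135) without selenite replicate 1 or 3. With equal medians 8 cytosolic genes were higher and 1 lower.

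Of the mitochondrial enzymes 0 of 16 were higher than control with selenite and 4 were lower, beside 14.5% of all genes, with a median of -0.02 that was 0.12 with equal totals and -0.18 with equal medians. Vars2 held 500, 511 and 494 scaled counts in selenite, the lowest of its 3 groups, and was lower than control by -0.45 (SE 0.07, adjusted p = 0.00131). Nars2 was lower by -0.43 (SE 0.06, adjusted p = 0.000532), and both calls were kept in all 21 alternatives. Fars2 differed by -0.26 (adjusted p = 0.0302), a call lost with equal totals and without control replicate 1 or 2 or selenite replicate 2 or 3. Lars2, mitochondrial leucyl-tRNA synthetase, held 673, 932 and 553 in control, 516, 456 and 393 in β-CYP and 524, 345 and 368 in selenite. Its controls were widely spread and above the other libraries, and the difference of -0.79 (SE 0.21) had an adjusted p of 0.0179. Control replicate 2, its highest library, also stood apart in AY036118, an rRNA-like transcript, with 1805976 reads against 43988 and 42232 in the other controls, and the part of this in the Lars2 value was not tested. Without control replicate 2 the Lars2 difference was -0.59 and did not pass, nor did it without selenite replicate 2 or 3. With equal medians 7 mitochondrial genes were lower.

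Genes that work beside the synthetases were taken from pathway lists. Over all genes tested, 11.6% rose and 12.3% fell between selenite and β-CYP. The counts below come from short lists and are to be read beside these shares. Of 10 genes for other steps of mitochondrial tRNA charging and modification, 2 rose and 1 fell between selenite and β-CYP: Qrsl1, a subunit of the amidotransferase that makes glutaminyl-tRNA in mitochondria, rose by 0.57 (adjusted p = 0.0165) while Gatb, another subunit of it, fell by 0.40 on the log2 scale (adjusted p = 0.00262). Gtpbp3, a tRNA-modifying enzyme, rose by 0.44 (adjusted p = 0.0323). Of 9 mitochondrial translation factors, the elongation factors Gfm1 (-0.27) and Tsfm (-0.38) fell and the release factor Mtrf1l (0.49) rose. Some of these calls ended when 1 library was left out, which also leaves fewer libraries for the test. Qrsl1 did not pass without replicate 1 or 3 of β-CYP or selenite, and Gtpbp3 without β-CYP replicate 2 or 3 or any selenite library. Tsfm did not pass without β-CYP replicate 2 or selenite replicate 1 or 2, and Mtrf1l without any β-CYP library, selenite replicate 1 or 2 or control replicate 1 or 3. Equal medians, quantile normalization and the replicate block also ended the calls of Gtpbp3 and Mtrf1l. So did leaving out the intensity trend for Gtpbp3, testing only the 2 groups compared for Mtrf1l, and equal totals for Tsfm and Gfm1. Of 5 cytosolic elongation factors, only Eef2, the translocase of the ribosome, passed, at -0.11, and its sign turned with equal totals (0.01) and quantile normalization (0.23). Of 6 genes for proofreading and release of aminoacyl- and peptidyl-tRNA, 0 passed in any comparison in limma's test. At an unadjusted p under 0.05 there were 2 in each comparison of the selenite group and 0 between β-CYP and control, and limma voom called 1, between selenite and control.

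The selenocysteine branch starts from seryl-tRNA made by Sars and continues through Pstk, Sepsecs and the selenium donor enzyme Sephs2. Beside 11.6% of all genes rising and 12.3% falling, 0 of its 6 listed genes rose and 1 fell between selenite and β-CYP. Sephs2, which makes selenophosphate, is among them and fell by 0.35 on the log2 scale (adjusted p = 1.58e-06). Pstk, the kinase acting on seryl-tRNA, was lower in β-CYP than in control by -0.72 (adjusted p = 0.0101) and did not pass between selenite and β-CYP (0.22). Sepsecs, the enzyme of the last step, held 422, 1757 and 882 scaled counts in β-CYP and 474, 1663 and 1499 in selenite, so the libraries of each group differed more than the groups.

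For the sensors of uncharged tRNA and other eIF2 kinases, 3 of 6 genes rose between selenite and β-CYP and 1 fell. Over all genes tested, 11.6% rose and 12.3% fell. Eif2ak3, which encodes the endoplasmic reticulum kinase PERK, held 571, 520 and 575 scaled counts in control, 545, 564 and 550 in β-CYP and 1075, 1124 and 1044 in selenite. It rose by 0.97 (SE 0.06, adjusted p = 1.9e-06), with control and β-CYP libraries intermixed and all selenite libraries well above them. Eif2ak4, encoding GCN2, rose by 0.29 (adjusted p = 0.0165), and Gcn1l1, its activator, by 0.28 (adjusted p = 0.00146). Impact, an inhibitor of GCN2 activation, fell by 0.39 on the log2 scale (adjusted p = 0.0443), a call that leaving out any β-CYP or selenite library ended, while that of Eif2ak4 ended without β-CYP replicate 1.

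Of 33 genes comprising ATF4 and its targets other than synthetases, 8 rose and 9 fell between selenite and β-CYP, with a median of 0.01. Over all genes tested, 11.6% rose and 12.3% fell. Atf4 itself held 2032, 2032 and 2067 in β-CYP and 2335, 2348 and 2240 in selenite, a rise of 0.18 (adjusted p = 0.00772) that did not pass with equal medians or without the intensity trend. Its rise of 0.25 between control and β-CYP (adjusted p = 0.00129) passed under all 21 alternatives. The stress-induced genes Nupr1 (2.34) and Trib3 (0.90) rose, whereas the amino acid transporter gene Slc38a2 fell by 0.82 on the log2 scale. Chac1, which encodes a glutathione-degrading enzyme, fell as well, from 296, 303 and 289 scaled counts in β-CYP to 127, 134 and 126 in selenite (adjusted p = 0.000751), within the range of control (122, 85.6 and 146). Cebpb (-0.94) and Atf5 (-0.45), both transcription factors, also fell. Between β-CYP and control 4 of the 33 rose and 7 fell, with a median of -0.0028, where 7.72% of all genes rose and 8.58% fell.

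Of 20 target genes of XBP1 and ATF6, which expand the protein-folding capacity of the endoplasmic reticulum, 17 rose and 1 fell between selenite and β-CYP (median 0.62), and 1 rose and 17 fell between β-CYP and control (median -0.35). Over all genes tested, 11.6% rose and 12.3% fell in the first of these comparisons, and 7.72% and 8.58% in the second. The 2 comparisons share the β-CYP libraries. Creld2 held 3626, 3530 and 3674 scaled counts in control, 1363, 1398 and 1238 in β-CYP and 6288, 5849 and 6101 in selenite, so β-CYP was lowest and selenite highest. The chaperone gene Hyou1 (1.48) and the secreted stress factor gene Manf (1.42) also rose with selenite, while Xbp1 itself fell by 0.22 on the log2 scale, a sign that turned with quantile normalization (0.01). Beside these 17 falls between β-CYP and control stand the 2 rises and 0 falls of the cytosolic synthetases, which became 1 rise and 3 falls with equal medians and 2 of each when only genes averaging 10 or more were tested. The difference between the lists was not tested.

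**Figure D5:**
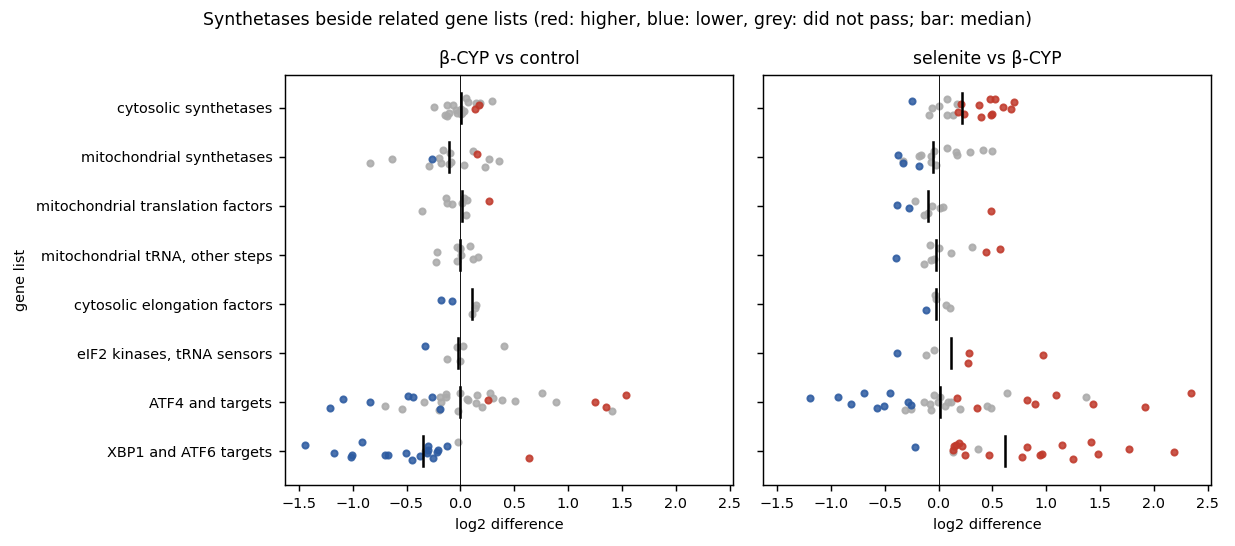
Log2 differences of single genes (points; red higher, blue lower, grey did not pass) with the list median (bar) for the synthetases and related gene lists, between β-CYP and control (left) and between selenite and β-CYP (right). The cytosolic synthetases sit near 0 on the left and at a median of 0.22 on the right, and the XBP1 and ATF6 targets have medians of -0.35 and 0.62.

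Markers of other cells differed between the groups as well. The 26 pancreatic acinar markers summed to 983 to 1157 scaled counts in control, with 20 of them at 0 in all 3 libraries, and to 1186 to 1240 in β-CYP, with 16 at 0, Cpa1, Cpb1, Pnlip and Prss2 among them in both groups. In the selenite libraries they summed to 47120 to 48600, or 0.155% to 0.159% of reads, with none at 0. Macrophage markers summed to 12120 to 12850 over the control and β-CYP libraries and 15450 to 15760 over the selenite libraries, and neutrophil markers to 89.6 to 98.3 (control), 459.5 to 508.6 (β-CYP) and 677 to 762 (selenite). Lymphocyte markers ranged from 198 to 224 in control, from 183 to 264 in β-CYP and from 292 to 362 in selenite. Cholangiocyte markers ranged from 2254 to 2429 in control, from 6490 to 6843 in β-CYP and from 1877 to 2009 in selenite. Stellate cell markers summed to 3813 to 3862 in control and 4139 to 4209 in β-CYP, against 4440 to 4722 in selenite, and erythroid markers to 29040 to 29310, 24810 to 25820 and 21420 to 22020 in that order. Markers of testis and spermatids, listed as a check, summed to 328 to 354 in control, where β-CYP had 2.77 to 8.32 and selenite 0 to 4.79. Hepatocyte markers, given earlier, were lower in selenite than in β-CYP. The sums of acinar, macrophage and lymphocyte markers set the selenite libraries apart from all others, as the cytosolic synthetase sum did. Those of acinar, hepatocyte, neutrophil, cholangiocyte, stellate cell, erythroid and testis markers also differed between β-CYP and control without overlap. For acinar markers this gap was narrow, the highest control sum being 1157 and the lowest β-CYP sum 1186. Sums of sinusoidal endothelium markers were likewise separate, with every β-CYP library at or below 11450 and every control at or above 11780. There the selenite libraries (11380 to 11790) overlapped both groups. The part of these sums in the synthetase results was not tested.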

How the data were processed

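Liver RNA-seq of 9 libraries was analysed from 1 table of log2 values that the authors deposited for 25781 genes. Each deposited log2 value is the logarithm of 1 plus the read count over a library factor. Undoing this gave whole reads (within 0.02) for 100% of values in each library, and the factors equal median-of-ratios factors. The submitters' processing notes name HISAT, Cufflinks and mm9, without versions or roles, and the strand setting is not stated in them. The design text names an Illumina instrument and the library protocol a BGISEQ one.

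Members and gene lists were chosen with earlier results of these data known. Any of the 36 synthetases could be named, and of the related lists at most the 5 genes with the lowest adjusted p per list and comparison, plus any gene of lists of up to 10. One limma 3.58.1 model (R 4.3.3) with a mean per group took log2(scaled count + 1) of the 20145 genes whose mean reached 1, with an intensity trend and Benjamini-Hochberg adjustment, and was tested on simulated data. The deposited unit being log2, no count model was used. The 21 alternatives per result were 4 other scalings, pseudocounts of 0.1 and 10, no filter, a mean of at least 10, only the 2 groups compared, no intensity trend, limma voom on whole reads, a replicate block and leaving out each of 9 libraries. The numbers do not pair the libraries. Promoters are RefSeq sequences on GRCm38.p6.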

Additional observations from a re-analysis of the deposited data

How the results depend on the processing

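Counts of synthetases passing in limma's test are compared here over the 21 alternatives. For the cytosolic enzymes between selenite and β-CYP (13 calls) the alternatives gave 10 to 14, and leaving out 1 library 12 to 13. Between β-CYP and control, the 2 cytosolic calls became 0 with equal totals and 0 without the intensity trend, 4 with equal medians (1 higher, 3 lower) and 4 with a mean of at least 10 (2 higher, 2 lower), and 1 to 3 without 1 library. The 2 mitochondrial calls of that comparison became 1 with equal totals, 1 with equal medians, 1 with no filter on low values, 1 with only the 2 groups compared, 0 without the intensity trend, and 0 to 2 without 1 library. Between selenite and β-CYP the 3 mitochondrial calls became 1 with equal totals and 2 to 5 without 1 library. Between selenite and control the 14 cytosolic calls became 9 with equal medians and 11 to 13 without 1 library. The 4 mitochondrial calls became 7 with equal medians, 2 without the intensity trend and 2 to 4 without 1 library. The cause was not tested, apart from the fewer libraries or genes that some settings use. Signs were followed for differences that passed in the main fit or under the alternative. Among these, a sign turned for Aars between selenite and control with equal totals (0.025) and quantile normalization (0.10), for Eef2 between selenite and β-CYP with the same settings (0.014 and 0.23), for Xbp1 there with quantile normalization (0.013), and for Sephs2 between selenite and control with quantile normalization (0.035). Signs of differences that did not pass also turned, such as that of Vars between selenite and β-CYP (-0.216 to 0.041 over the alternatives).

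Replicate numbers name libraries only: deviations of same-numbered libraries correlated at -0.037 to 0.072 over 9 pairs, and those of differently numbered ones at -0.074 to 0.074 over 18. With the replicate block the mitochondrial calls between β-CYP and control were 1 in place of 2, cytosolic calls between selenite and control 13 in place of 14, and the other counts of calls were as before. Pars2 and Mars2, with fewer than 150 scaled counts in each library, have wide intervals, and a p that misses the threshold there does not show that groups are alike. The spread of Pars2 in β-CYP (a coefficient of variation of 94.0%) was not tested for a cause.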
